A study of Mus musculus with 18 samples.

Results

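Peroxisomal fatty acid oxidation was followed through 7 genes in mouse stem cells passing from primed to naive pluripotency. They were taken by symbol from the deposited count table: the acyl-CoA importers Abcd2 and Abcd3, the acyl-CoA oxidase Acox3, the bifunctional enzymes Ehhadh and Hsd17b4, and the thiolases Acaa1a and Acaa1b. All 7 were among the 25239 symbols of the table and all 7 passed the filter on low counts, which kept 17545 genes. The study sequenced RNA depleted of ribosomal RNA from 18 libraries, 3 in each of 6 groups. EpiSC, labelled as primed stem cells, were day 0 of the transition. D3, D5 and D8, labelled transient, followed at days 3, 5 and 8. The group rES carries the label of naive stem cells, and ESC that of mouse embryonic stem cells. ESC have no day of the transition and stand beside it as the reference. The labels give mouse embryo as the tissue and stem cell as the line of every group. The sources used here give no strain, genotype, medium, passage or number of lines or clones. They also leave unsaid whether the replicates of a group came from different cultures, so the spread behind each p-value may be technical.

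Peroxisomes shorten fatty acids that mitochondria handle poorly, such as very long-chain, branched and dicarboxylic acids. ABC transporters of the peroxisomal membrane bring in the acyl-CoA, an acyl-CoA oxidase makes the first double bond and releases hydrogen peroxide, a bifunctional enzyme hydrates and dehydrogenates the product, and a thiolase splits off acetyl-CoA. The shortened chains leave for mitochondria, where the carnitine shuttle takes over. In rodent liver several of these genes, among them Ehhadh and Acaa1, are textbook targets of the lipid-sensing nuclear receptor PPAR-alpha.

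Totals ran from 58.4 M to 101.6 M deposited counts per library, D8 replicate 2 being the deepest. Levels are given as CPM, counts relative to the scaled library size, and differences as log2 values ± an approximate standard error from edgeR's quasi-likelihood test. The p-values were adjusted over all 17545 tested genes, and a gene was called at an adjusted p under 0.05. The labels of EpiSC, rES and ESC held against 6 naive and 5 primed markers. The naive markers summed to 3650 to 4055 CPM in rES and ESC and to 56.5 to 63.2 CPM in EpiSC, where Zfp42 and Nr0b1 had no count. Between these lay D3 at 186 to 205 CPM, D5 at 211 to 270 CPM and D8 at 755 to 1350 CPM. At D3 and at D5, 5 of the 6 naive markers were called higher than EpiSC and 1 lower. Of all tested genes 34.1% and 37.7% were higher and 30.2% and 34.3% lower. The primed markers summed to 1696 to 1862 CPM in EpiSC and to 60.9 to 219 CPM elsewhere. The transient days also carried markers of other cell types. The 8 trophoblast markers, all with counts in every D3, D5 and D8 library, summed to 2439 to 3394 CPM there, to 114 to 146 CPM in EpiSC and to 118 to 181 CPM in rES and ESC. The 6 fibroblast markers summed to 451 to 1591 CPM on those days, 29.4 to 44.7 CPM in EpiSC, 4.88 to 6.28 CPM in rES and 118 to 164 CPM in ESC. At D5 and at D8, 5 of the 6 were called higher than EpiSC and 1 lower. Of all tested genes 37.7% and 42.4% were higher and 34.3% and 34.5% lower. The 8 endoderm markers were lower in sum but their sum also rose, from 1.44 to 3.22 CPM in EpiSC to 41.1 to 68.4 CPM on those days. Not all of them took part: Ttr and Alb had no count at D3, and Afp and Ttr none at D5. The endoderm markers summed to 13.9 to 15.5 CPM in rES and 6.78 to 9.37 CPM in ESC. These sums move with several results below, and their part in them was not tested. In bulk RNA, fewer cells of a type and less RNA per cell cannot be told apart.

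**Figure D1:**
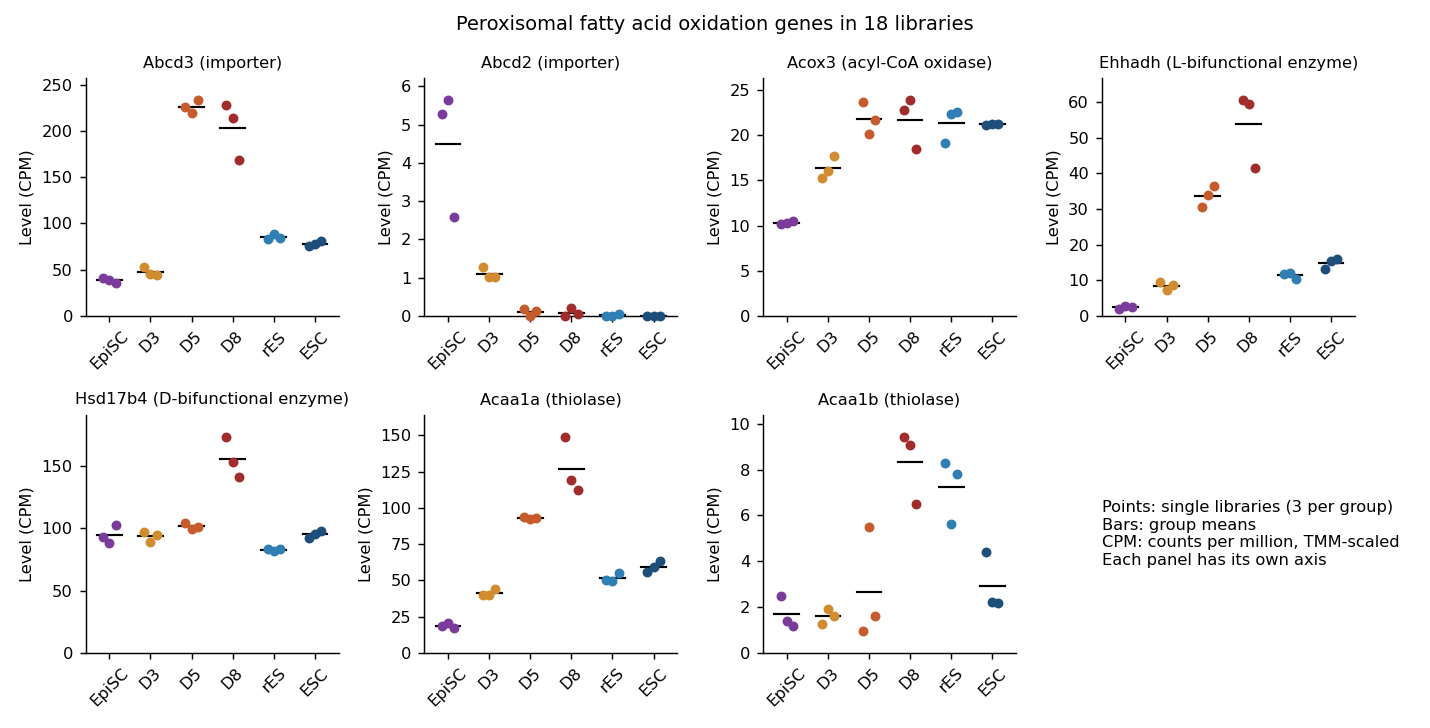
Level of each gene in every library, in CPM after scaling, by group from EpiSC through days 3, 5 and 8 to rES, with the reference ESC last. Points are single libraries, bars are means of 3, and each panel has its own axis from 0. Abcd3, Ehhadh and Acaa1a are highest at D5 or D8 and lower in rES and ESC, and Acox3 is near 21 CPM in D5, D8, rES and ESC. Hsd17b4 stands above all other groups at D8 and a little below them in rES, and Abcd2 is found in EpiSC and D3.

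The importers came first in the pathway and went opposite ways. Abcd3 (ENSMUSG00000028127, chromosome 3, 121758774 to 121815302, minus strand in GRCm38, as for all genes here), also known as PMP70, is a major protein of the peroxisomal membrane. It was at 41.2, 39.0 and 35.7 CPM in EpiSC and at 52.5, 45.9 and 44.5 CPM at D3. It reached 226, 219 and 233 CPM at D5. At D8 it stood at 228, 214 and 168 CPM, in rES at 83.0, 88.1 and 84.8 CPM, and in ESC at 75.9, 77.9 and 80.9 CPM. Every D5 and D8 library lay above every library of the other groups. The rise from D3 to D5 was 4.75-fold (log2 difference 2.25 ± 0.10, adjusted p = 3.31e-12) and made up most of the 5.86-fold difference between D5 and EpiSC (2.55 ± 0.10, adjusted p = 1.1e-13). The earlier difference of D3 from EpiSC was small (0.30 ± 0.09, adjusted p = 0.00950), and it missed the threshold without D3 replicate 1 (0.23, adjusted p = 0.0560). Between D5 and D8 the log2 difference was -0.15 ± 0.09 (adjusted p = 0.198). From D8 to rES the gene fell 2.39-fold (log2 difference -1.25 ± 0.10, adjusted p = 1.26e-09). It was higher than in EpiSC both in rES and in the reference ESC (1.14 ± 0.10 and 1.02 ± 0.10, adjusted p = 5.72e-09 and 3.02e-08).

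Abcd2 (chromosome 15, 91145871 to 91191799, minus strand), a transporter of very long-chain acyl-CoA, was the only one of the 7 genes at its highest in EpiSC. Its libraries there gave 5.27, 5.64 and 2.58 CPM, and at D3 1.27, 1.02 and 1.01 CPM. From D5 on it had at most 20 deposited counts in a library, and in ESC it had none in any of 3. The floor used here is 12 counts per library, 0.189 CPM on average in ESC, since low values of the table bunch at 4. Against that floor Abcd2 was at least 23.8-fold lower in ESC than in EpiSC (adjusted p = 1.16e-05). D5 and D8 averaged 0.104 and 0.0888 CPM and rES 0.0204 CPM, means below the floor and all called lower than EpiSC (adjusted p = 0.000153, 0.000112 and 3.01e-05). D3 was also called lower (log2 difference -2.03 ± 0.83, adjusted p = 0.0431), with all its libraries below all of EpiSC. That call was lost, at differences of -1.83 to -2.14, without EpiSC replicate 1 (adjusted p = 0.119), without EpiSC replicate 2 (adjusted p = 0.135), without any of the D3 libraries (adjusted p = 0.0798 to 0.103) and with DESeq2 (adjusted p = 0.0584). Leaving out rES replicate 3, the only rES library with counts, turned the rES difference from D8 into a call (adjusted p = 0.0381), with both group means below the floor. Abcd2 passed the filter through EpiSC and D3, the groups where it was high, so its calls there are no independent support.

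Acox3 (chromosome 5, 35583040 to 35615352, plus strand) oxidises branched-chain acyl-CoA. It was at 10.2, 10.3 and 10.5 CPM in EpiSC, 15.2, 16.0 and 17.7 CPM at D3 and 23.7, 20.1 and 21.7 CPM at D5. D8 gave 22.8, 23.9 and 18.5 CPM, rES 19.1, 22.4 and 22.6 CPM and ESC 21.2, 21.3 and 21.3 CPM. The gene thus stood higher than EpiSC in every other group, without overlap, by 1.58-fold at D3 (log2 difference 0.66 ± 0.11, adjusted p = 3.47e-05) and by 2.12-fold at D5 (1.08 ± 0.11, adjusted p = 5.75e-08). D5, D8, rES and ESC overlapped. The log2 difference of D8 from D5 was -0.01 (approximate 95% interval -0.24 to 0.23), of rES from D8 -0.03 (-0.26 to 0.21) and of rES from ESC 0.01 (-0.23 to 0.24). These 3 differences were close enough to 0 to change sign with the scaling or with single libraries.

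The bifunctional enzymes diverged. Ehhadh (chromosome 16, 21761287 to 21787807, minus strand), the L-bifunctional enzyme, takes straight-chain and dicarboxylic intermediates. It gave 2.12, 2.79 and 2.41 CPM in EpiSC. It stood at 9.62, 7.17 and 8.77 CPM at D3, 30.5, 33.9 and 36.4 CPM at D5, and 60.6, 59.4 and 41.6 CPM at D8. In rES it was at 11.9, 12.2 and 10.4 CPM and in ESC at 13.3, 15.4 and 16.0 CPM. No pair of groups following each other on the way to D8 overlapped. The rise over EpiSC was 3.49-fold at D3 (log2 difference 1.80 ± 0.16, adjusted p = 1.89e-08), 13.8-fold at D5 (3.78 ± 0.17, adjusted p = 5.95e-13) and 22.0-fold at D8 (4.46 ± 0.17, adjusted p = 7.9e-14). It fell 4.69-fold from D8 to rES (log2 difference -2.23 ± 0.15, adjusted p = 2.92e-10). In rES it remained higher than in EpiSC (2.23 ± 0.16, adjusted p = 8.07e-10). Each rES library lay below each ESC library, and the difference of -0.38 ± 0.15 missed the threshold (adjusted p = 0.0593).

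Hsd17b4 (chromosome 18, 50128201 to 50196269, plus strand), the D-bifunctional enzyme, needed for branched and very long chains, moved little before D8. Its libraries gave 93.0, 88.5 and 103 CPM in EpiSC, 97.3, 89.2 and 94.9 CPM at D3 and 104, 99.4 and 100.9 CPM at D5. D8 stood apart from all other groups at 174, 153 and 141 CPM. The rise from D5 to D8 was 1.53-fold (log2 difference 0.62 ± 0.07, adjusted p = 2.45e-06), and the gene fell 1.88-fold from D8 to rES (-0.91 ± 0.08, adjusted p = 4.13e-09), where it gave 83.4, 81.9 and 83.7 CPM. ESC gave 91.9, 95.9 and 97.8 CPM. The rES lay below ESC without overlap, and that difference of -0.20 ± 0.07 missed the threshold (adjusted p = 0.0502). ESC and EpiSC differed by 0.01 on the log2 scale (approximate 95% interval -0.16 to 0.17). The rES were called lower than EpiSC (-0.19 ± 0.07, adjusted p = 0.0296). That call was lost with RLE scaling (-0.05, adjusted p = 0.613), with DESeq2 (adjusted p = 0.606), with the groups fitted alone (adjusted p = 0.695), without EpiSC replicate 3 (adjusted p = 0.163) and without any of the rES libraries (-0.18 to -0.20, adjusted p = 0.0591 to 0.0790).

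Set against each other per kilobase of transcript, Ehhadh stood at 0.0233 ± 0.00437 of the level of Hsd17b4 in EpiSC (mean ± SD, n = 3) and at 0.0816 ± 0.00846 at D3. The ratio was 0.298 ± 0.0317 at D5 and 0.309 ± 0.0421 at D8, came down to 0.125 ± 0.0113 in rES and was 0.141 ± 0.00911 in ESC. On the log2 scale D5 exceeded D3 by 1.87 and rES were below D8 by a difference of -1.31, and the libraries did not overlap in either case. A two-sided exact permutation test of this ratio gave p = 0.1 for both, which is the smallest p that 3 libraries against 3 allow, in a family of 9 comparisons. D8 and D5 overlapped (log2 difference 0.05, two-sided exact permutation p = 0.7).

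**Figure D2:**
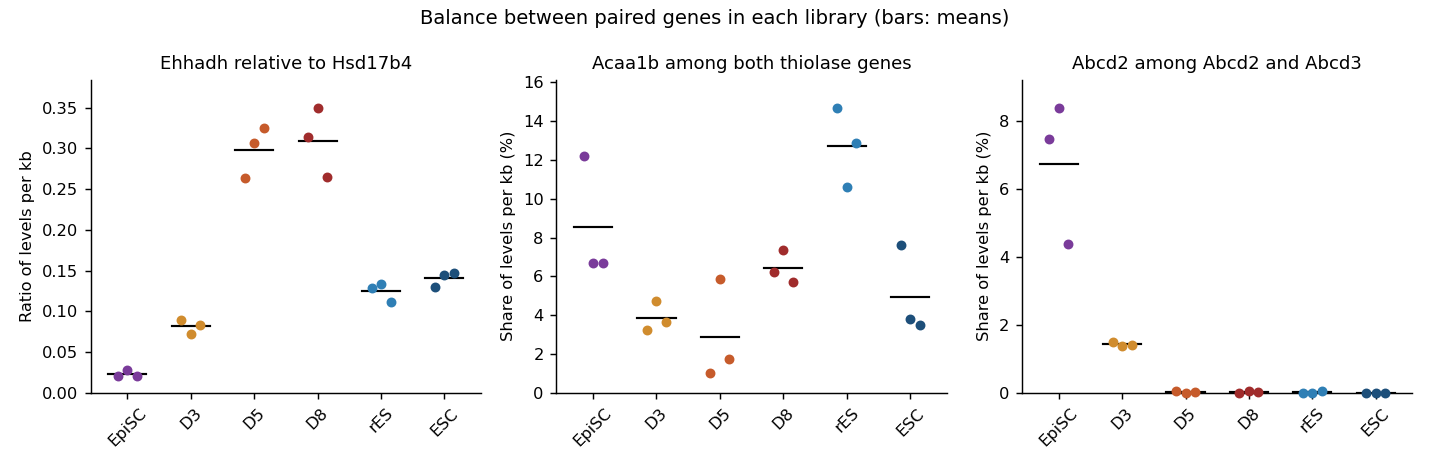
Balance within 3 pairs of genes in each library, on levels per kilobase of transcript. Left, level of Ehhadh relative to Hsd17b4; middle, share of Acaa1b in the sum of Acaa1a and Acaa1b, in percent; right, share of Abcd2 in the sum of Abcd2 and Abcd3, in percent. Points are libraries and bars are means of 3. The Ehhadh ratio is highest at D5 and D8, the mean Acaa1b share is highest in rES, where it overlaps EpiSC, and the Abcd2 share is highest in EpiSC.

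Acaa1a and Acaa1b encode the peroxisomal 3-ketoacyl-CoA thiolases, which complete each round. Both genes lie on mouse chromosome 9 in GRCm38, Acaa1b at 119148023 to 119157093 on the minus strand and Acaa1a at 119339676 to 119350299 on the plus strand, 182582 bases apart with 3 protein-coding genes between them. Their coding sequences of 1272 bases each are identical at 96.5% of positions, with 44 mismatches and no gap. Of all runs of 150 bases in the Acaa1b transcript, 13.3% occur letter for letter in that of Acaa1a, and of runs of 75 bases 28.5%. The opening 60 coding bases, shown because they illustrate how hard reads of the pair are to assign, differ at 1 base, which is in capitals. They come from GENCODE vM21 and start at the start codon.
Acaa1a: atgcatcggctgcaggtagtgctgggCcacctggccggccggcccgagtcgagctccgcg
Acaa1b: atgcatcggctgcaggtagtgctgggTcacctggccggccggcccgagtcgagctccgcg

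How the authors assigned reads that fit both genes is not given in the sources used here. Single values of Acaa1b in particular are uncertain for that reason. Acaa1a followed Ehhadh closely. It was at 18.7, 20.6 and 17.2 CPM in EpiSC, 39.8, 40.1 and 44.2 CPM at D3, 94.0, 92.3 and 92.9 CPM at D5 and 149, 119 and 112 CPM at D8. In rES it was at 50.4, 49.5 and 55.2 CPM and in ESC at 55.7, 59.0 and 63.5 CPM. Each step up to D8 was without overlap. Over EpiSC it rose 2.20-fold at D3 (log2 difference 1.14 ± 0.10, adjusted p = 1.26e-08), 4.95-fold at D5 (2.31 ± 0.10, adjusted p = 5.27e-13) and 6.74-fold at D8 (2.75 ± 0.10, adjusted p = 5.36e-14). It fell 2.46-fold from D8 to rES (-1.30 ± 0.10, adjusted p = 1.12e-09). Both rES (1.46 ± 0.10) and ESC (1.66 ± 0.10) were higher than EpiSC (adjusted p = 3.38e-10 and 6.48e-11).

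Exons of Acaa1a overlap those of Myd88, an adaptor of innate immune receptors on the opposite strand, over 290 bases, and whether counting used strand is not given. Myd88 averaged 4.97 ± 0.455 CPM in EpiSC, 54.4 ± 1.24 CPM at D3, 63.1 ± 1.15 CPM at D5, 51.4 ± 7.99 CPM at D8, 5.59 ± 0.475 CPM in rES and 8.66 ± 0.0204 CPM in ESC, so it too was high on the transient days. Its part in the Acaa1a counts was not tested. Overlapping exons of Acaa1b with Dlec1 (224 bases) and of Acox3 with 4931431C16Rik (700 bases) involve genes at or below 1.04 and 0.471 CPM in every library.

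Acaa1b was the scarcer thiolase gene in every library. It gave 2.49, 1.41 and 1.18 CPM in EpiSC, 1.27, 1.90 and 1.61 CPM at D3, and 0.946, 5.49 and 1.59 CPM at D5, where replicate 2 stood far from the others. Libraries of D8 gave 9.44, 9.07 and 6.51 CPM, of rES 8.29, 5.62 and 7.81 CPM and of ESC 4.39, 2.23 and 2.19 CPM. D8 and rES were above every other group, with their lowest values of 6.51 and 5.62 CPM just over the highest of D5. Against EpiSC the gene rose at D8 (log2 difference 2.30 ± 0.49, adjusted p = 0.000364) and in rES (2.10 ± 0.49, adjusted p = 0.000965). The D5 difference of 0.66 ± 0.48 (adjusted p = 0.230) turned to -0.42 without D5 replicate 2 and was called at 1.06 without D5 replicate 1 (adjusted p = 0.0426), and the step from D3 to D5 behaved likewise (0.74 ± 0.48, adjusted p = 0.197, then -0.33 and 1.15). It was the only one of the 7 called between rES and ESC (1.30 ± 0.47, adjusted p = 0.0413), and that call was lost without rES replicate 1 or 3 or ESC replicate 2 or 3 (differences of 1.13 to 1.25, adjusted p = 0.0929 to 0.138). As a share of both thiolase genes per kilobase, Acaa1b made up 12.7% ± 2.03 in rES, 4.95% ± 2.29 in ESC, 6.41% ± 0.843 at D8 and 8.52% ± 3.18 in EpiSC. The summed level of both, less exposed to how shared reads were split, was 20.5 ± 1.91 CPM in EpiSC, 135 ± 20.7 CPM at D8, 58.9 ± 3.95 CPM in rES and 62.3 ± 2.96 CPM in ESC.

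**Figure D3:**
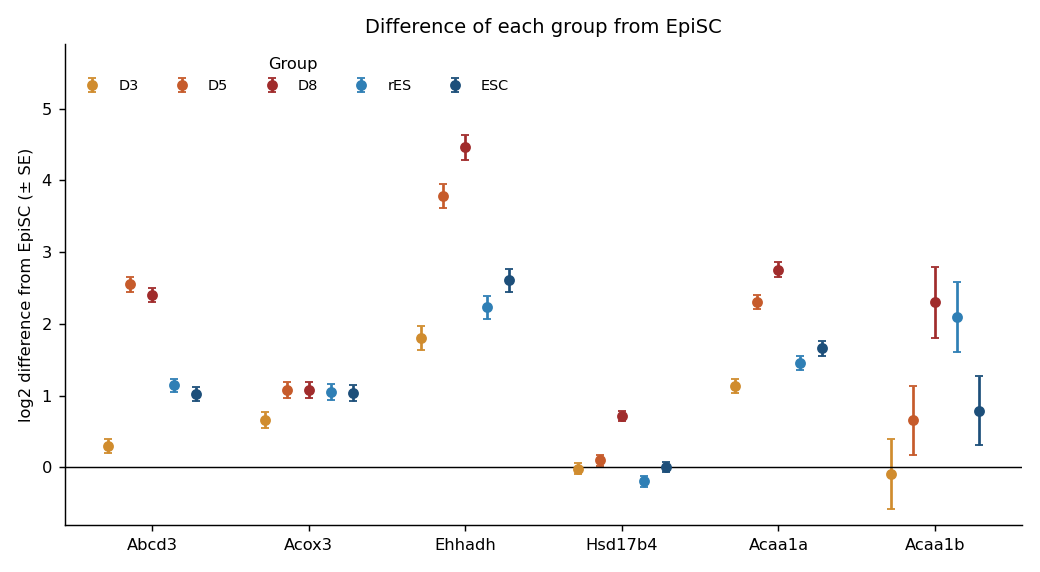
Log2 difference of D3, D5, D8, rES and ESC from EpiSC for 6 of the genes, from edgeR's fit of all 18 libraries, with bars of ± 1 approximate standard error. Abcd2 is left out because a fitted difference against groups at or near 0 counts depends on the prior count. Ehhadh shows the widest differences, up to 4.46 at D8, Acox3 levels off near 1.05 and Hsd17b4 leaves the neighbourhood of 0 only at D8.

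Counted over the 7 genes, 4 were higher and 1 lower than EpiSC at D3, where 64.2% of all tested genes were called, 34.1% higher and 30.2% lower. Libraries of the 2 groups did not overlap for 5 of the 7, and for 68.1% of all genes. At D5 again 4 were higher and 1 lower, with 72% of all genes called, 37.7% higher and 34.3% lower, and 5 of 7 did not overlap, against 75% of all genes. These shares of the 7 lie near the background. At D8 6 were higher and Abcd2 lower, with 76.8% of all genes called, 42.4% higher and 34.5% lower, and all 7 were without overlap, against 79%. In rES 5 were higher and 2 lower, with 69.4% of all genes called, 31.9% higher and 37.5% lower, and all 7 were without overlap, against 75.2%. In ESC 4 were higher and 1 lower, with 67.3% of all genes called, 31.2% higher and 36.1% lower, and 5 were without overlap, against 72.2%. These 5 comparisons share the EpiSC libraries. Abcd2 is the gene lower at D3, D5, D8 and in ESC, and 1 of the 2 lower in rES. It passed the filter through EpiSC and D3, so its part in these counts is no independent support. The median log2 difference of the 7 genes was 0.30 at D3, 1.08 at D5, 2.30 at D8, 1.14 in rES and 1.02 in ESC, beside 0.00, 0.02, 0.19, -0.09 and -0.07 over all tested genes. Without D3 replicate 1, 3 were called at D3 in place of 5.

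Of the steps, D3 to D5 raised Abcd3, Acox3, Ehhadh and Acaa1a and lowered Abcd2, with 59.5% of all genes called, 29.9% higher and 29.6% lower, and 6 of the 7 were without overlap, against 64.6%. From D5 to D8 Ehhadh, Hsd17b4, Acaa1a and Acaa1b were higher and none of the 7 lower, with 47.1% of all genes called, 25.1% higher and 22% lower, and 4 were without overlap, against 55.2%. From D8 to rES Ehhadh, Hsd17b4, Acaa1a and Abcd3 were lower and none of the 7 higher, with 71.1% of all genes called, 38.4% lower and 32.7% higher, and 4 were without overlap, against 76.9%. Between rES and ESC 1 of 7 was called, higher, with 33.5% of all genes called, 15.6% higher and 17.9% lower, and 5 were without overlap, against 53.7%. With those groups fitted alone, where 51.7% of 15167 tested genes were called, 5 of the 6 that passed that fit's filter were called: Ehhadh, Hsd17b4 and Acaa1a lower and Acaa1b and Abcd3 higher in rES, the largest of the added differences being -0.36 for Ehhadh (adjusted p = 0.0131). With counts divided by 4 it was 3 of 7, beside 41% of all genes tested.

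The order of the genes changed on the way. Per kilobase of transcript, Hsd17b4 led in EpiSC at 35.3 ± 2.77 CPM per kb, ahead of Abcd3 at 11.1 ± 0.790 and Acaa1a at 10.7 ± 0.969, which did not differ beyond their spread. Acox3 at 2.59 ± 0.0477 came next, then Acaa1b at 1.00 ± 0.413, Ehhadh at 0.819 ± 0.113 and Abcd2 at 0.813 ± 0.301, which overlapped. At D5 Abcd3 led at 64.8 ± 2.0 CPM per kb, before Acaa1a at 52.8 ± 0.480 and Hsd17b4 at 37.9 ± 0.962. At D8 Acaa1a was at 72.0 ± 11.1, Abcd3 at 58.3 ± 9.02 and Hsd17b4 at 58.1 ± 6.16 CPM per kb, Ehhadh at 18.1 ± 3.57 and Acox3 and Acaa1b at 5.47 ± 0.723 and 4.94 ± 0.946. In ESC Hsd17b4 and Acaa1a stood level at 35.5 ± 1.12 and 33.7 ± 2.23 CPM per kb, with Abcd3 at 22.4 ± 0.725, Acox3 at 5.34 ± 0.0183 and Ehhadh at 5.0 ± 0.475.

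Across the 18 libraries the log2 levels of Ehhadh and Acaa1a had a Pearson correlation of 0.992, and each was the other's nearest gene among those searched. The search covered tested genes with a mean of at least 5 CPM, without symbols that start with Gm or end in Rik. Tmem106a and Zbp1 came next for both, at 0.981 to 0.985. Abcd3 was nearest to Lgalsl, Zfp655 and Dram2 (0.983 to 0.989) and stood at 0.931 with Ehhadh. Hsd17b4 was nearest to Atp6v0a1, Akap13 and Ccny (0.938 to 0.972), Acox3 to Rab11fip5, Crtap and Kif13b (0.966 to 0.973), and Abcd2 to Zfp608, Magel2 and Dact3 (0.952 to 0.957). Acaa1b had no neighbour above 0.865 in that search, the value for Ephx1, and correlated at 0.506 with Acaa1a. These correlations describe 6 groups of 3 libraries, which share depth and group means.

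Because Ehhadh and Acaa1a moved together and Acaa1b did not, the sequence upstream of their start sites is shown. Windows of 250 bases before to 50 after the start site came from RefSeq on GRCm38.p6, with 6 windows for 5 of the 7 genes: Acox3, Ehhadh, Acaa1a, Acaa1b and Abcd3. Abcd2 and Hsd17b4 were not matched. Below are the bases before the start site, with capitals marking CCAAT or its reverse complement ATTGG. They lie at chr16:21787835-21788084 on the minus strand for Ehhadh, chr9:119341160-119341293 on the plus strand for Acaa1a, where only the 134 bases outside annotated exons are given, and chr9:119157094-119157343 on the minus strand for Acaa1b.
Ehhadh: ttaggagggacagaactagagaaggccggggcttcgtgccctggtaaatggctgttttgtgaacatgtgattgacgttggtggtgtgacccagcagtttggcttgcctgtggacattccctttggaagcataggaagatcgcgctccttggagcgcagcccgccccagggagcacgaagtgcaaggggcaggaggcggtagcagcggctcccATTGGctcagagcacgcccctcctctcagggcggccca
Acaa1a: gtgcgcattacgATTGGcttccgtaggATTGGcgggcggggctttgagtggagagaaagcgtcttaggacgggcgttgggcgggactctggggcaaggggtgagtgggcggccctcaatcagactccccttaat
Acaa1b: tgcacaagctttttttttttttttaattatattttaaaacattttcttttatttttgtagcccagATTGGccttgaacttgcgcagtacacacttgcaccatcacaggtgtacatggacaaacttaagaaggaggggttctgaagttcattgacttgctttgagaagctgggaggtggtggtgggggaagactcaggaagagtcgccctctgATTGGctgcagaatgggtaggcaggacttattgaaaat

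The motif searched for nuclear receptors was the direct repeat bound by PPAR with RXR, AGGTCA followed after 1 base by AGGTCA, and a looser form with AGGNCA in both places, on both strands. The single copy is contained in the repeat. Neither form occurred in the 6 windows, and they occur in 0.0396% and 0.381% of all 32851 windows of this length. The single repeat AGGTCA (16.3% of all windows) and TCAAGGTCA (0.423%) had no match either, which says only that these letters are not in these windows. CCAAT on either strand, in 37.4% of all windows, occurred once in the window of Ehhadh, 4 times in that of Acaa1a and 4 times in that of Acaa1b, of which the bases printed hold 1, 2 and 2. GGGCGG on either strand, in 35.7%, occurred 2, 3 and 0 times. These last 2 motifs were chosen after the sequences had been seen.

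The nuclear receptors themselves changed widely over the same days. Pparg, a receptor best known from fat cells and placenta, averaged 0.151 CPM in EpiSC, 9.36 ± 0.854 CPM at D3, 137 ± 7.40 CPM at D5 and 175 ± 43.2 CPM at D8. It had no count in any rES library, at least 916-fold below the D8 mean when set at the floor (adjusted p = 6.46e-12). The bound leaves out the spread at D8. The gene passed the filter through the transient days, where it was high, so its calls there, also among the 5 below, are no independent support. ESC averaged 0.0518 CPM. Rxra, its dimer partner, was at 34.6 ± 2.89 CPM in EpiSC and 228 ± 27.5 CPM at D8 (log2 difference 2.72 ± 0.10, adjusted p = 5.69e-14) and fell to 42.6 ± 0.840 CPM in rES. Of the list of 6 PPAR, RXR and PGC1 genes, 5 were tested, and all 5 were higher than EpiSC at D3, D5 and D8. Of all tested genes, 34.1%, 37.7% and 42.4% were higher on those days. In rES all 5 were lower than at D8, beside 38.4% of all genes. From D5 to D8, 2 of the 5 were lower and none higher: Ppargc1b (-1.72 ± 0.13, adjusted p = 7.14e-09) and Ppard (-1.16 ± 0.09, adjusted p = 7.91e-09). Ppara had its highest mean at D8, at 1.28 ± 0.128 CPM, overlapping D5 at 0.994 ± 0.389 CPM, and Ppargc1a was not tested.

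A list of 30 other genes of peroxisomal oxidation, 28 of them tested, gave 11 higher and 7 lower at D5, 18 and 6 at D8 and 20 and 5 in ESC, each against EpiSC, with median log2 differences of 0.36, 1.43 and 0.74. At D3 it was 9 higher and 11 lower, with a median of -0.03. Of all tested genes 64.2% were called at D3, 72% at D5, 76.8% at D8 and 67.3% in ESC, so many calls in any list are background. The very long-chain acyl-CoA synthetase Slc27a2 fell from 76.1 ± 2.89 CPM in EpiSC to 0.218 ± 0.260 CPM at D5 (adjusted p = 2.15e-12) and was at 29.1 ± 1.16 CPM in rES. Pecr, a reductase of unsaturated acyl-CoA, fell from 22.0 ± 1.31 to 2.25 ± 0.239 CPM at D5 (-3.29 ± 0.21, adjusted p = 7.9e-11). Among genes of the list at 5 CPM or more, those furthest above EpiSC in ESC were Phyh, which starts the alpha-oxidation of phytanic acid, and the sterol carrier and thiolase Scp2 (1.77 ± 0.10 and 1.37 ± 0.10, adjusted p = 2.2e-11 and 5.06e-10).

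The organelle's own assembly genes were mixed. Of 16 peroxins 9 were higher and 5 lower than EpiSC at D5, 10 and 5 at D8, and 4 and 6 in ESC, with medians of 0.60, 0.73 and -0.11. Of all tested genes 37.7%, 42.4% and 31.2% were higher in those comparisons and 34.3%, 34.5% and 36.1% lower. Pex16, which helps place membrane proteins, rose from 6.83 ± 0.821 to 53.6 ± 5.96 CPM at D5 (2.97 ± 0.16, adjusted p = 1.02e-11), and Pex3, its partner, from 19.1 ± 1.30 to 71.4 ± 6.81 CPM at D8 (1.90 ± 0.11, adjusted p = 2.36e-11). From D8 to rES 12 of the 16 were lower and 4 higher, where 71.1% of all genes were called, 38.4% lower and 32.7% higher. Pex2 and Pex6, of the matrix import machinery, were lower in ESC than in EpiSC (-2.80 ± 0.09 and -1.56 ± 0.10, adjusted p = 1.97e-14 and 1.44e-10). Ether lipid synthesis, the other main task of peroxisomes, split at D8: Tmem189 and Agps were higher (1.34 ± 0.11 and 0.80 ± 0.09) and Far1 and Gnpat lower (-1.88 ± 0.10 and -1.79 ± 0.07, adjusted p for these 4 at most 1.05e-07).

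Mitochondrial oxidation is set beside these as 13 genes, of which 11 were higher and 2 lower than EpiSC at D5, 11 and 1 at D8, 10 and 3 in rES and 8 and 3 in ESC. Of all tested genes 72%, 76.8%, 69.4% and 67.3% were called in those comparisons, in the same order. From D8 to rES 9 of the 13 were lower and 2 higher, beside 38.4% lower and 32.7% higher of all genes. Cpt1a, which makes the acylcarnitines that enter mitochondria, was one of the 2, at 90.2 ± 18.6 CPM at D8 and 300 ± 11.7 CPM in rES (log2 difference 1.73 ± 0.11, adjusted p = 6.2e-11). Across that step Ehhadh, Acaa1a, Abcd3 and Hsd17b4 had all fallen. The difference between these changes was not itself tested.

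**Figure D4:**
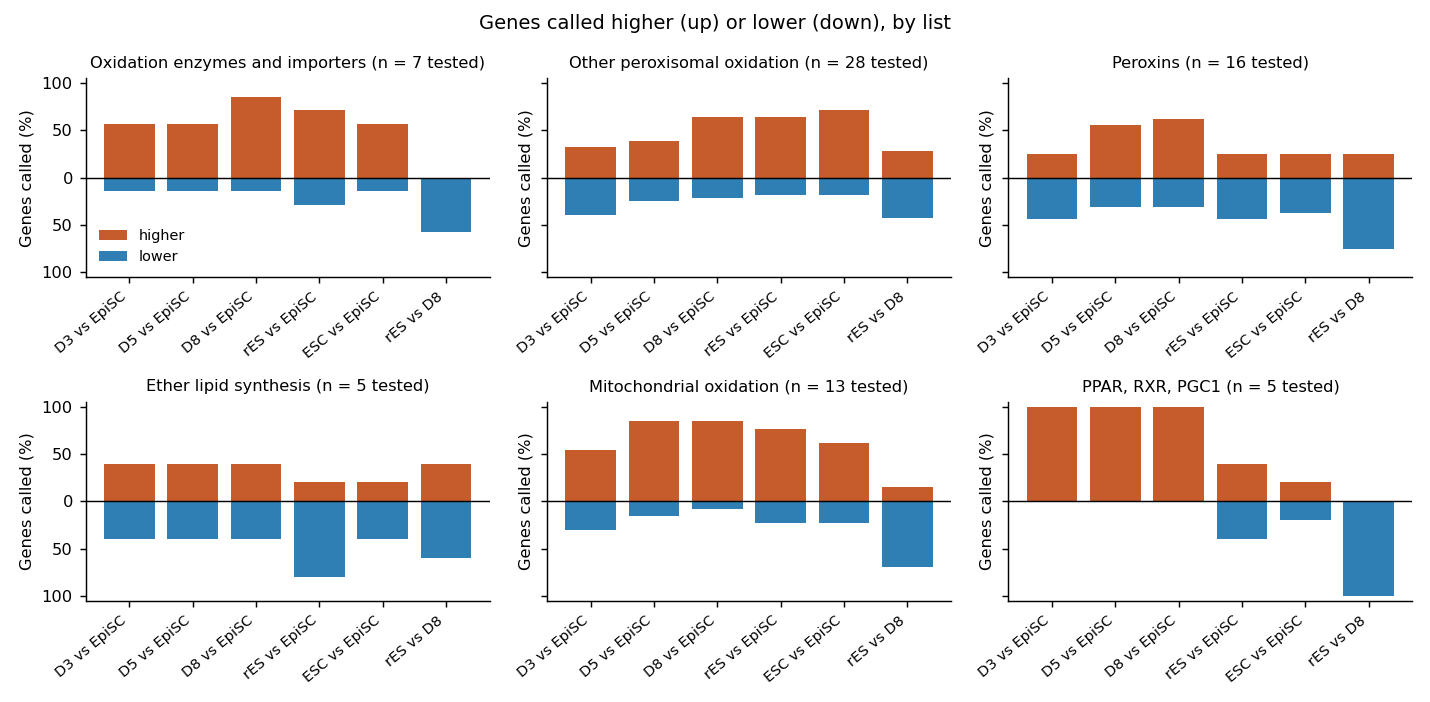
Percent of tested genes called higher (bars up) or lower (bars down) at an adjusted p under 0.05, for the 7 genes described here and 5 other lists, in each comparison with EpiSC and in rES against D8. The PPAR list is higher for 5 of 5 at D3, D5 and D8 and lower for 5 of 5 from D8 to rES, and 4 of the 7 oxidation genes and importers are lower at that last step. Of all tested genes 34.1%, 37.7% and 42.4% were higher at D3, D5 and D8. From D8 to rES 71.1% of all genes were called, 38.4% lower, so 4 of 7 is no more than the background of calls.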

How the data were processed

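RNA-seq was analysed from 18 libraries in 6 groups of 3, grouped by their titles. The deposited values are unscaled expected counts, given as whole numbers for each symbol. Per the submitters' processing notes, bcl2fastq, Trim Galore, HISAT2 and mm10 were used, with no versions. Counting program, annotation and strandedness: not given in the sources used here. Low counts bunch at 4: the median library had 157 genes with 3, 314.5 with 4 and 105.5 with 5 counts, so a count may not be 1 read, and the floor of 3 reads was set at 12 counts. The floor covers counting error only, whereas the intervals of log2 differences also hold the spread between libraries.

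All libraries entered 1 fit in edgeR 4.0.16 (R 4.3.3, limma 3.58.1) after filterByExpr, with TMM scaling (factors 0.945 to 1.05), the quasi-likelihood F test and Benjamini-Hochberg adjustment. Standard errors were taken from the log2 difference and the root of its F value, and 95% intervals use 12 residual degrees of freedom. Log2 levels for correlations used a prior count of 2. Levels per kilobase divide by the GENCODE vM21 transcript with the longest coding sequence. Alternatives were RLE scaling, DESeq2 1.42.0, no filter, the groups fitted alone, a replicate block, counts divided by 4 and each library left out.

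The steps were tested on simulated data for ESC against EpiSC with 17063 genes: 8.96% of 67 genes changed 1.5-fold were called, 83.6% of 67 changed 2-fold, and 100% of 66 changed 4-fold. False calls made up 6.57%. Only these genes, drawn from those with higher counts, were changed, and all genes were given the same spread. In the data 67.3% of genes were called in that comparison and the spread differs between genes. The simulated shares therefore check the steps and do not give the power or the share of false calls in the data.

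Members, lists and comparisons were all chosen with earlier results of these data known. All 7 are given in every comparison. Other lists are named by up to 2 called genes each way with the largest difference and at least 5 CPM in a group. A few genes chosen this way are left out of the text. The genes most like each of the 7 are the 3 with the highest correlation.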

Additional observations from a re-analysis of the deposited data

How the results depend on the processing

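Replicate numbers did not pair the libraries: deviations from the group means correlated at -0.061 to 0.053 in the 45 pairs with equal numbers, and for 7 of 18 libraries the best match carried the same number. With a replicate block Abcd2 at D3 against EpiSC lost its call (-2.02, adjusted p = 0.0746). The number of the 7 genes called between rES and ESC, 1 in the fit reported, was 3 with counts divided by 4, 5 with the groups fitted alone and 0 to 2 with a library left out. At D3 against EpiSC it was 3 to 5 with a library left out. In the other 7 comparisons it stayed within 1.5 times under every alternative run. Counts over all genes under the alternatives that leave out no replicate were 0.928 to 1.34 times those reported. Some differences changed sign or came to 0, and not all of these were near 0 in the fit reported. There Acaa1b at D5 differed by 0.66 from EpiSC and by 0.74 from D3. Abcd2 in rES against ESC, at or near 0 counts in both, had a fitted difference of 3.58. For Hsd17b4 at D3 against EpiSC the differences were 0.0159 with RLE scaling and 0.0133 with DESeq2, and -0.0621 to 0.0486 with a library left out. For Acox3, D8 against D5 gave 0.0555 with RLE scaling, 0.0561 with DESeq2 and 0.00814 with counts divided by 4, and -0.0807 to 0.0974 with a library left out. For Acox3 in rES against D8 RLE scaling gave 0.0310, DESeq2 0.0288 and left-out libraries -0.130 to 0.0489, and in rES against ESC they gave -0.0343 to 0.0817. Left-out libraries moved Hsd17b4 in ESC against EpiSC from -0.0410 to 0.0696, Acaa1b from -0.29 to 0.30 at D3, from -0.42 to 1.06 at D5 against EpiSC and from -0.33 to 1.15 at D5 against D3, and Abcd2 from -1.65 to 0.51 at D8 against D5 and from 0 to 4.12 in rES against ESC. The cause was not tested, apart from fewer samples in the fits without a library. RLE scaling moved the median of all genes by at most 0.09 on the log2 scale. Abcd2 from D5 on had at most 20 counts in a library, near the floor of 12.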
